A study of Drosophila melanogaster with 4 samples.

Results

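Xrp1, Irbp18, crc, Gcn2, PEK, Gadd45, puc, kay, Jra and bsk are 10 genes of the fly's responses to ribosome stress, of the integrated stress response and of JNK signalling, followed here through ribosome footprints of ovaries. They were taken by name, out of 17437 genes or joint loci, and found in the deposited tables through the coordinates of their transcripts. All 10 had transcripts in the tables, and all 10 passed the filter on low counts. The libraries came from Drosophila melanogaster ovaries, 2 from RpS5b mutant females and 2 from wildtype females, all dissected 48 hours after the adults emerged. RpS5b encodes a paralog of the small-subunit ribosomal protein S5. The labels name no allele for the mutant and no strain for either group. Egg chambers of stages 10 to 14 had been taken out of the control ovaries, per the labels.

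The integrated stress response starts with kinases that phosphorylate the initiation factor eIF2 on its alpha subunit. This slows general initiation and favours the translation of crc, the fly ATF4. Xrp1 is a basic leucine zipper transcription factor that pairs with Irbp18, and it is known from fly imaginal discs as the factor that cells with too little of a ribosomal protein turn on. In JNK signalling the kinase bsk phosphorylates Jra, the fly Jun. Jra and kay, the fly Fos, together form the transcription factor AP-1, and AP-1 turns on puc, a phosphatase that switches bsk off. In the ovary, JNK signalling is known for its part in shape changes of the follicle cells that surround the germ line.

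A footprint is an RNA fragment shielded by a ribosome, so a count combines the amount of an mRNA with its occupancy. The libraries held 13942184 and 8714570 reads in the mutant and 3122299 and 6170623 in the wildtype. Protein-coding genes took 4599943 and 3066388 counts in the mutant against 1053479 and 1738077 in the wildtype, so genes with few counts were measured least precisely in wildtype. Transfer RNA genes took 60.19% and 54.8% of the counts on genes in the mutant against 55.58% and 63.94% in the wildtype. RpS5b itself had 10 and 9 counts in the mutant against 287 and 342 in the wildtype, a log2 fold change of -6.42 (SE 0.29). The labels do not say whether both libraries of a genotype stem from different animals, and the spread behind each p-value may therefore be technical.

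Footprints on Gadd45, puc and kay rose in the mutant and those on Gcn2 fell. The calls were made at 0.05 on p-values of the edgeR quasi-likelihood test, adjusted by Benjamini-Hochberg over all 7783 genes tested. The other 6, Xrp1, Irbp18, crc, PEK, Jra and bsk, did not pass. Of all genes tested, 41.4% were called, 20.5% higher and 20.9% lower, so 4 of 10 members called (40%) is close to the background. With protein-coding genes alone Xrp1 and Jra passed too, and 5 of the 10 genes rose. That setting called 1715 genes higher and 1817 lower in all, against 1594 and 1625 in the main fit. It tested protein-coding genes only, of which the main fit held 7102. For 8 of the 10 genes (80%) both libraries of the mutant lay on the same side of both wildtype libraries in CPM, against 71.8% of all genes tested. Of these, 7 were higher in the mutant and 1, Gcn2, was lower, where 37.5% and 34.3% of all genes were. CPM are counts relative to the size of the library, as scaled by edgeR. The median log2 fold change of the 10 genes was 0.39, and that of all genes tested was 0.03 with quartiles of -0.49 and 0.53. In tissue of mixed cell types, fewer cells of a type and less RNA per cell cannot be told apart. The removal of egg chambers of stages 10 to 14 from the control ovaries cannot be told apart from genotype either.

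**Figure D1:**
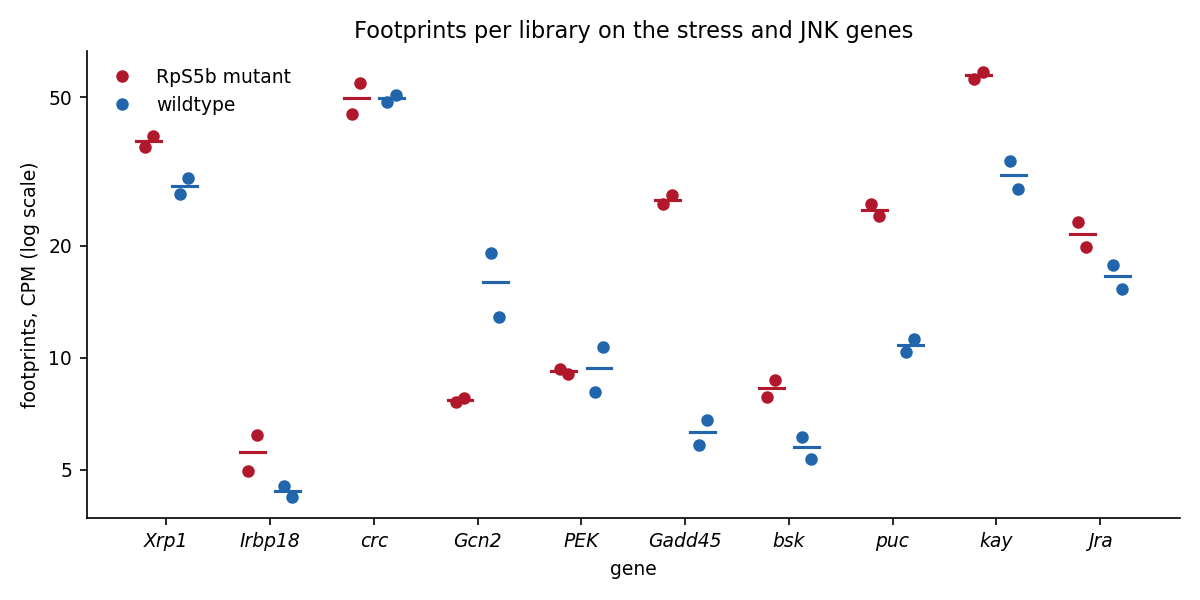
Footprints per library, in CPM on a log axis, for the 10 genes; points are libraries, short lines the means of 2 libraries. Gadd45, puc and kay lie clearly higher in RpS5b mutant than in wildtype ovaries, Gcn2 lies lower, and crc and PEK overlap.

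Markers of the cell types in an ovary differed between the same libraries. Of 11 follicle cell markers tested, 9 were called higher in the mutant, with a median log2 fold change of 1.10. Among these, slbo, named after its values were seen, passed the filter on low counts only through the mutant, where it was high. The summed level of the follicle cell list was 4794 and 3856 CPM in the mutant against 2458 and 1431 CPM in the wildtype. Most of that sum came from Yp1 and Vm26Aa, named after their values were seen. Yp1 had 1952 and 1717 CPM in the mutant against 425 and 249 CPM in the wildtype. Vm26Aa, which did not pass, had 1708 and 1171 CPM against 1415 and 751 CPM. Among all genes tested, 20.5% were called higher and 20.9% lower. All 10 chorion markers, genes of the eggshell made in late egg chambers, were called lower, with a median of -2.18 and summed levels of 1607 and 1128 CPM in the mutant against 7140 and 4837 CPM in the wildtype. Germ cell markers summed to 617 and 675 CPM in the mutant against 726 and 665 CPM in the wildtype. Of the 9 tested 1 was higher, 1 lower and 7 did not pass, a smaller share called than the 41.4% of all genes tested. The germ cell marker vas had 1372 and 1047 counts in the mutant against 354 and 601 in the wildtype, so RNA of the germ line was present in every library. The part of cell composition in the changes of the 10 genes was not tested, nor was that of the egg chambers taken out of the control ovaries.

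Xrp1 was counted through transcript FBtr0083700, in build BDGP6 at 3R 18914968 to 18926849, plus strand, with 5 exons over 3619 nt. It had 473 and 344 counts in the mutant against 85 and 165 in the wildtype, which is 36.8 and 39.5 CPM against 27.5 and 30.4 CPM. Both mutant libraries lay above both wildtype libraries, by a margin smaller than for Gadd45, puc or kay. The log2 fold change was 0.39 (SE 0.14, 95% interval 0.07 to 0.70, edgeR adjusted p = 0.0531), which just missed the threshold. It passed with protein-coding genes alone (adjusted p = 0.0368), with at least 10 CPM in 2 libraries (0.0475) and with the replicate number as a block (0.0171), and it did not pass under the other 11 alternatives. The unadjusted p was 0.0223, while an exact permutation test of 2 against 2 libraries cannot go below a two-sided p of 0.333.

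Irbp18, the partner of Xrp1, is a short gene of few counts, on 3L at 11097446 to 11098186, minus strand, with a transcript of 614 nt. Its counts were 64 and 54 in the mutant against 14 and 23 in the wildtype, or 4.97 and 6.20 CPM against 4.53 and 4.24 CPM. The groups did not overlap, yet the lower mutant library was within 0.5 CPM of the higher wildtype one. The log2 fold change of 0.34 (SE 0.27, adjusted p = 0.346) had a 95% interval of -0.29 to 0.97, which holds no difference as well as a sizeable rise. Per length, Xrp1 and Irbp18 stood near each other: the ratio of Xrp1 to Irbp18 in deposited RPKM was 1.25 and 1.08 in the mutant against 1.03 and 1.22 in the wildtype, so the ratios overlapped.

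crc had 580 and 476 counts in the mutant against 150 and 276 in the wildtype, through a transcript on 2L at 21310866 to 21319527, plus strand, of 2244 nt. In CPM this was 45.1 and 54.6 in the mutant against 48.5 and 50.9 in the wildtype, with both wildtype libraries between the mutant ones. The 95% interval of the log2 fold change ran from -0.34 to 0.34 (edgeR adjusted p = 0.999). This leaves room for no more than a small change in the total of the counted transcript. Of its 2244 nt, 1336 are shared with another annotated gene on the same strand, so the total does not bound crc alone.

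The 2 eIF2 kinases of the fly are Gcn2, which is activated by uncharged transfer RNA and stalled ribosomes, and PEK, the fly PERK of the endoplasmic reticulum. Gcn2, on 3R at 31395660 to 31402013, plus strand, with 10 exons over 5737 nt, had 98 and 68 counts in the mutant against 59 and 70 in the wildtype. Scaled to the libraries, these were 7.62 and 7.80 CPM in the mutant against 19.1 and 12.9 CPM in the wildtype. The mutant libraries were close to each other and both below wildtype, while the wildtype libraries were far apart. Gcn2 averaged 7.71 ± 0.13 CPM in the mutant and 16 ± 4.37 CPM in the wildtype (SD, n = 2 each), with a log2 fold change of -1.01 (SE 0.22, 95% interval -1.53 to -0.49, edgeR adjusted p = 0.00936). It kept this call in all 14 alternatives, with log2 fold changes between -1.32 and -0.75.

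PEK, on 3R at 5458563 to 5464753, minus strand, with 4639 nt, had 120 and 79 counts in the mutant against 25 and 58 in the wildtype. This was 9.33 and 9.06 CPM in the mutant against 8.09 and 10.7 CPM in the wildtype, and both mutant libraries lay between the wildtype ones. The log2 fold change was -0.06 (SE 0.21, 95% interval -0.55 to 0.43, adjusted p = 0.838). The ratio of Gcn2 to PEK in deposited RPKM was 0.66 and 0.70 in the mutant against 1.91 and 0.98 in the wildtype: PEK stood above Gcn2 in both mutant libraries, while in the wildtype 1 library had Gcn2 clearly higher and the other had the kinases about level.

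Gadd45 changed by more than any of the other 9 genes. It encodes a small stress-induced protein whose human relatives bind kinases that act upstream of p38 and JNK. It is a gene of 1 exon on 2R at 7249161 to 7250655, plus strand, with 1495 nt, and has 1 transcript in the tables. It had 333 and 238 counts in the mutant against 18 and 37 in the wildtype, or 25.9 and 27.3 CPM against 5.82 and 6.82 CPM. The mutant libraries were within 2 CPM of each other and far above both wildtype libraries. Gadd45 averaged 26.6 ± 1.0 CPM in the mutant and 6.32 ± 0.71 CPM in the wildtype (SD, n = 2 each), a 4.12-fold difference with a log2 fold change of 2.04 (SE 0.16, 95% interval 1.68 to 2.41, edgeR adjusted p = 0.000133). By log2 fold change it ranked 92 among the 7783 genes tested. Under the 14 alternatives its log2 fold change lay between 1.95 and 2.19, and it passed in each.

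**Figure D2:**
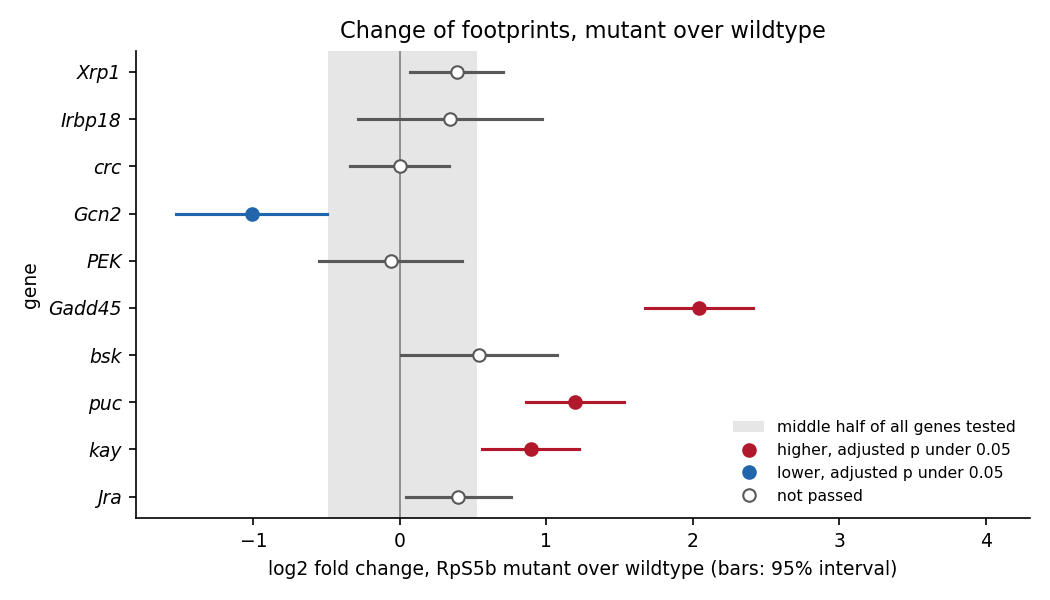
Log2 fold change of RpS5b mutant over wildtype for the 10 genes, with 95% intervals; filled points passed the test and the grey band spans the quartiles of all genes tested, -0.49 to 0.53. Gadd45 (2.04), puc (1.19) and kay (0.89) lie to the right of the band, bsk (0.54, not passed) lies at its edge, and Gcn2 (-1.01) lies to its left.

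bsk, the JNK of the fly, had 101 and 76 counts in the mutant against 19 and 29 in the wildtype, on 2L at 10247502 to 10250501, minus strand, with 1535 nt. The levels were 7.85 and 8.72 CPM in the mutant against 6.15 and 5.35 CPM in the wildtype, without overlap. The log2 fold change of 0.54 (SE 0.23, 95% interval 0.006 to 1.07, adjusted p = 0.0953) did not pass, and under the 13 alternatives that tested bsk it passed in none.

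puc, the phosphatase that both answers to JNK and restrains it, lies on 3R at 8105332 to 8122294, plus strand, with 4 exons over 2919 nt. It had 332 and 209 counts in the mutant against 32 and 61 in the wildtype, which is 25.8 and 24.0 CPM against 10.4 and 11.2 CPM. Libraries of a genotype were close together and the groups were well apart. puc averaged 24.9 ± 1.29 CPM in the mutant and 10.8 ± 0.63 CPM in the wildtype (SD, n = 2 each), a 2.29-fold difference (log2 fold change 1.19, SE 0.14, 95% interval 0.86 to 1.53, edgeR adjusted p = 0.000768). The ratio of puc to bsk in deposited RPKM was 1.73 and 1.45 in the mutant against 0.89 and 1.11 in the wildtype, so puc stood above bsk in both mutant libraries, while in the wildtype it stood below bsk in 1 library and above it in the other.

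kay, which gives the Fos subunit of AP-1, had the most counts of the 10 genes in both mutant libraries, 722 and 510, against 104 and 154 in the wildtype for 3R at 29782609 to 29794113, plus strand, 3194 nt. This was 56.1 and 58.5 CPM in the mutant against 33.7 and 28.4 CPM in the wildtype. kay averaged 57.3 ± 1.69 CPM in the mutant and 31.0 ± 3.72 CPM in the wildtype (SD, n = 2 each), with a log2 fold change of 0.89 (SE 0.14, 95% interval 0.56 to 1.23, edgeR adjusted p = 0.00241). Its call held in all 14 alternatives, as did that of puc, with log2 fold changes of 0.75 to 1.01 for kay and 0.89 to 1.26 for puc.

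Jra, the Jun subunit, on 2R at 10096928 to 10098556, plus strand, 1525 nt, had 297 and 173 counts in the mutant against 55 and 83 in the wildtype. The levels, 23.1 and 19.8 CPM in the mutant against 17.8 and 15.3 CPM in the wildtype, did not overlap. The log2 fold change was 0.40 (SE 0.15, 95% interval 0.04 to 0.76, adjusted p = 0.0717), which did not pass. It passed with protein-coding genes alone (adjusted p = 0.0448) and without a filter on low counts (0.0477). The ratio of kay to Jra in deposited RPKM was 1.16 and 1.41 in the mutant against 0.90 and 0.89 in the wildtype, so kay was the higher AP-1 subunit per length in both mutant libraries and the lower in both wildtype libraries. Whether kay rose by more than Jra, or puc by more than bsk, was not tested.

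Per transcript length, in deposited RPKM, the genotypes placed Gadd45, puc and kay differently among the 10 genes. Deposited RPKM are scaled by all reads of a library, transfer RNA included. Levels set between libraries therefore carry differences in that share, while the order of genes within a library does not. In the mutant the order was crc at 21.4, kay at 17.3, Gadd45 at 17.1, Jra at 13.5, Xrp1 at 10.1, Irbp18 at 8.78, puc at 8.19, bsk at 5.20, PEK at 1.90 and Gcn2 at 1.29, as means of 2 libraries. Neighbours whose libraries overlapped there were kay with Gadd45, Xrp1 with Irbp18, and Irbp18 with puc. In the wildtype the order was crc at 20.7, Jra at 10.2, kay at 9.12, Xrp1 at 7.46, Irbp18 at 6.69, Gadd45 at 3.93, bsk at 3.51, puc at 3.45, Gcn2 at 2.64 and PEK at 1.88, and Jra with kay, Gadd45 with bsk, bsk with puc, and Gcn2 with PEK overlapped. By the counts of its transcript, which include exons shared with another annotated gene, crc stood first in both genotypes, and the eIF2 kinases stood last.

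**Figure D3:**
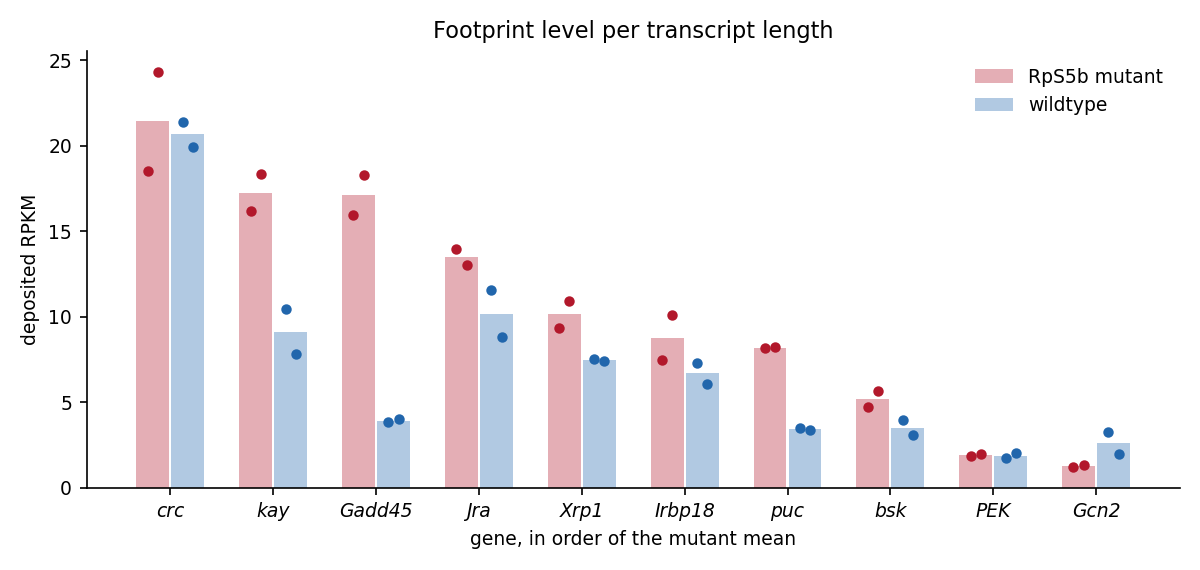
Deposited RPKM of the 10 genes, ordered by the mutant mean; bars are means of 2 libraries and points are libraries. By its transcript's counts, shared exons included, crc is the highest in both genotypes, and the 2 eIF2 kinases are the lowest, while Gadd45 is 17.1 in the mutant and 3.93 in the wildtype.

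The tables give each transcript's total, and a read counts in every transcript that overlaps it. Differences between overlapping transcripts therefore bound the counts that each exon can hold, and these bounds were worked out after the values were seen. The 7 Xrp1 transcripts differ in their first exons. The first exon of the counted transcript, 958 nt on 3R at 18914968 to 18915925, held between 114 and 153 counts and between 95 and 139 counts in the mutant libraries, against 17 to 26 and 13 to 31 in the wildtype libraries. In CPM these ranges were 8.86 to 11.9 and 10.9 to 15.9 in the mutant against 5.50 to 8.41 and 2.40 to 5.72 in the wildtype. Every value the counts allow was higher in the mutant, and the ratio of the means lay between 1.40 and 3.52.

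The next large exon of Xrp1, 907 nt at 18920413 to 18921319 and shared by 4 of the 7 transcripts, carried most of the footprints. It had exactly 320 and 201 counts in the mutant against 58 and 134 in the wildtype, or 67.65% and 58.43% of the transcript's counts against 68.24% and 81.21%. In CPM the exon had 24.9 and 23.1 in the mutant against 18.8 and 24.7 in the wildtype, and the groups overlapped. The last exons, shared by all 7 transcripts over 1664 nt, held at most 39 and 44 counts in the mutant against 9 and 18 in the wildtype. The genotypes were thus apart in the first exon of the counted transcript and overlapped in the exon that held most of the footprints. In another first exon, 366 nt in 4 of the 7 transcripts, the allowed ranges overlapped too. These were 3.58 to 6.61 and 2.75 to 7.80 CPM in the mutant against 2.27 to 5.18 and 3.32 to 6.64 CPM in the wildtype. The 6 other Xrp1 transcripts lack the first exon of the counted transcript. They had log2 fold changes of 0.15 to 0.31 with edgeR adjusted p of 0.45 to 0.54.

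**Figure D4:**
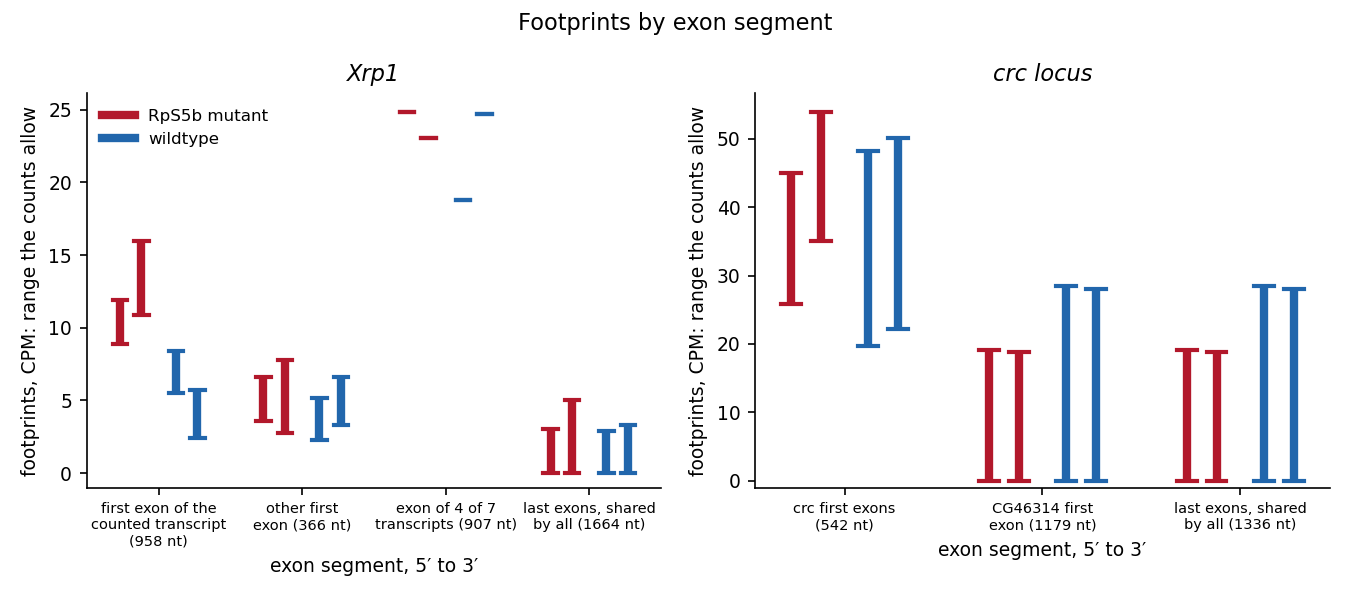
Footprints by exon segment of Xrp1 (left) and of the crc locus (right), in CPM, for each library; each bar spans the lowest and highest value that the transcripts' counts allow, and a single tick is an exact value. In Xrp1 the mutant bars lie above the wildtype bars in the first exon of the counted transcript. The groups overlap in the other first exon shown and in the exon of 907 nt.

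Most footprints of the crc transcript in the mutant also lay early in the gene, while for the wildtype the totals leave this undecided. Of the transcript's counts, the first exons, 542 nt, held at least 57.24% and 64.29% in the mutant against at least 40.67% and 43.48% in the wildtype. This is at least 332 and 306 counts in the mutant against 61 and 120 in the wildtype. The same exons held at most 578 and 470 counts in the mutant against 149 and 272 in the wildtype. The shares that the counts allow in the 2 genotypes therefore overlap. The last exons, 1336 nt, held at most 246 and 164 counts in the mutant against 88 and 152 in the wildtype, and are shared with a second annotated gene, CG46314, singled out after its values were seen. CG46314 lies on the same strand, at 21314360 to 21319527 of 2L, and had 19.1 and 18.8 CPM in the mutant against 28.5 and 28.0 CPM in the wildtype (log2 fold change -0.57, SE 0.12, edgeR adjusted p = 0.00893). The call of CG46314 was lost with DESeq2 and with total counts. Its own first exon, 1179 nt, and the exons it shares with crc cannot be told apart from the totals, so the counts allow the crc first exons to be higher or lower in the mutant.

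For kay, puc and Gcn2 the transcript made little difference. All 5 kay transcripts had log2 fold changes of 0.86 to 0.89, the other puc transcript had 1.15, and the 3 Gcn2 transcripts had the same counts. With their other transcripts PEK was at -0.19 and -0.20, and bsk at 0.42 (adjusted p = 0.182), none of which passed. The end piece of the Gcn2 transcript, 453 nt, overlaps PNPase on the opposite strand and held 0 counts in each library, although PNPase had 118 and 84 counts in the mutant against 34 and 38 in the wildtype. Irbp18 shares 95 nt with CG33947 and Jra shares 39 nt with RpLP0-like, both on the opposite strand. The sources used here do not say whether the counting used strand.

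Beside puc and kay, no core gene of the JNK pathway was called higher. Of 22 core genes from receptor to phosphatase, 21 were tested: 2 rose, puc and kay, 3 fell and 16 did not pass, with a median log2 fold change of 0.06. So 5 of 21 were called, a smaller share than the 41.4% of all genes tested. The 3 that fell act upstream of bsk or oppose signalling. Tab2, an adaptor of the kinase Tak1, averaged 9.04 ± 0.69 CPM in the mutant and 22 ± 1.87 CPM in the wildtype (SD, n = 2 each; log2 fold change -1.28, SE 0.15, adjusted p = 0.000805). Ask1, a kinase above JNK and p38, was at -0.95 (SE 0.16) and alph, a phosphatase, at -0.91 (SE 0.13). The receptor gene grnd, with 3 and 4 counts in the mutant against 3 and 2 in the wildtype, was too low to test.

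Genes linked to JNK and AP-1 in earlier fly work moved in both directions. Of 19 listed, 13 were tested: 8 rose, 2 fell and 3 did not pass, with a median of 0.89. Among all genes tested 20.5% were higher and 20.9% lower. Of those that rose, rpr and scaf passed the filter on low counts only through the mutant, where they were high. scaf, named after its values were seen, had 42 and 24 counts in the mutant against 2 and 5 in the wildtype. With at least 10 CPM in 2 libraries, 6 genes of the list rose, among 1332 of all genes. Beside puc and kay, hid, an inducer of cell death, averaged 15.9 ± 0.58 CPM in the mutant and 4.59 ± 1.28 CPM in the wildtype (log2 fold change 1.85, SE 0.23, adjusted p = 0.000866), and Pvr, a receptor tyrosine kinase, was at 0.94 (SE 0.15). The cell death gene rpr, named after its values were seen, had 30 and 21 counts in the mutant against 0 and 0 in the wildtype, at least 6.73-fold higher when 3 counts are set as the floor over the wildtype group. Ilp8, a relaxin-like hormone, fell, with 75 and 21 counts in the mutant against 108 and 320 in the wildtype (log2 fold change -3.46, SE 0.37, adjusted p = 0.000469). mol, a dual oxidase maturation factor, fell to 2.33 ± 0.11 CPM in the mutant, against 22.6 ± 3.19 CPM in the wildtype (log2 fold change -3.29, SE 0.21). Replicates of a genotype were far apart for Ilp8, yet the groups did not overlap.

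**Figure D5:**
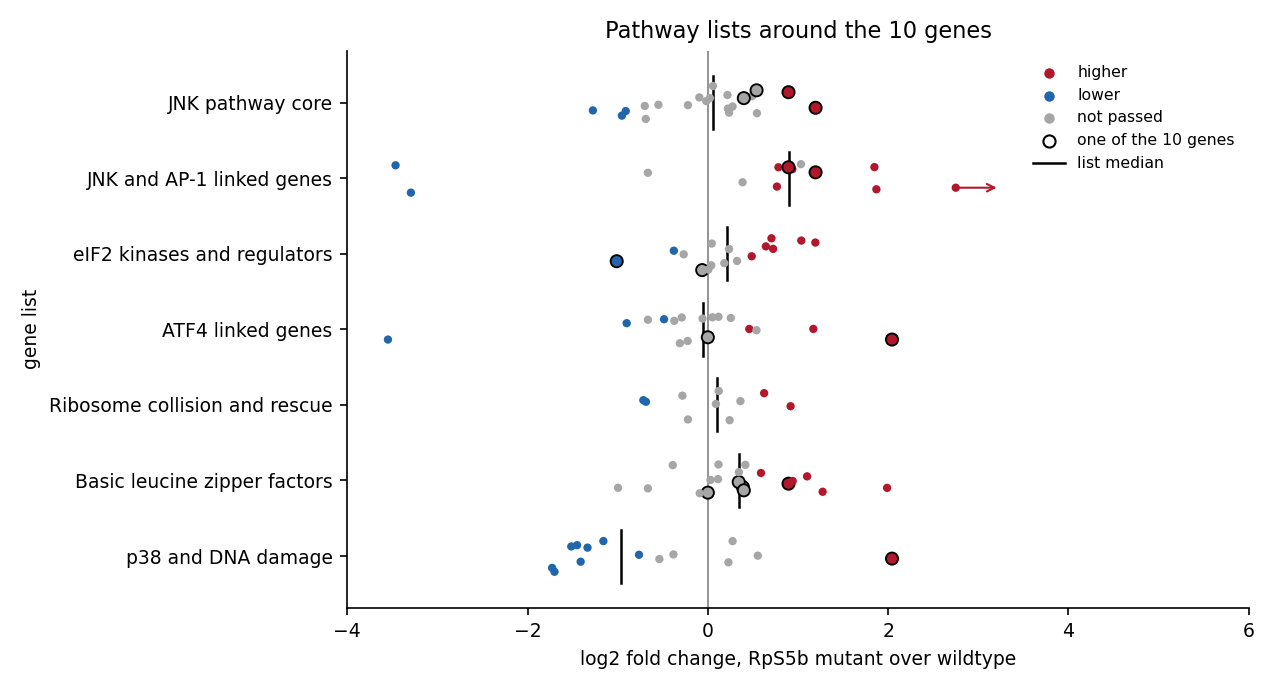
Log2 fold change of RpS5b mutant over wildtype for every tested gene of 7 lists; each point is a gene, outlined points are among the 10 genes, and black lines are list medians. The arrow marks rpr, drawn at its lower bound because wildtype had 0 counts; the list medians run from -0.96 for p38 and DNA damage to 0.89 for JNK and AP-1 linked genes.

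Around the eIF2 kinases, 3 named initiation factors were higher in the mutant. Of 16 kinases and regulators tested, 6 rose, 2 fell and 8 did not pass, with a median of 0.21, where 20.5% of all genes tested were higher and 20.9% lower. The share called in either direction was near the 41.4% of all genes. eIF5, the activator of the GTPase of eIF2, averaged 206 ± 3.23 CPM in the mutant and 101 ± 4.89 CPM in the wildtype (SD, n = 2 each; log2 fold change 1.04, SE 0.15, adjusted p = 0.00143). The GTP-binding subunit eIF2gamma was at 1.19 (SE 0.18), and eIF2alpha, the substrate of Gcn2 and PEK, at 0.72 (SE 0.15). Beside Gcn2, the lower gene was DENR, a factor of re-initiation, at -0.38 (SE 0.13, adjusted p = 0.0482), and its call was lost in 9 of 14 alternatives. Without wildtype replicate 2, and likewise without mutant replicate 1, 3 genes of this list rose. The call of eIF2alpha was lost without wildtype replicate 2 (adjusted p = 0.0532).

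Of 17 genes linked to ATF4 that were tested, 3 rose, 3 fell and 11, crc among them, did not pass, with a median of -0.06. These shares are close to the 20.5% higher and 20.9% lower among all genes tested. Gadd45 was joined among the higher ones by Nmdmc, a mitochondrial folate enzyme, at 30.3 ± 3.62 CPM in the mutant and 13.3 ± 1.48 CPM in the wildtype (log2 fold change 1.17, SE 0.16, adjusted p = 0.00128). The pseudokinase gene trbl was at 0.46 (SE 0.16, adjusted p = 0.0482), a call lost in 9 of 14 alternatives. The amino acid transporter gene slif fell to 5.42 ± 0.36 CPM in the mutant, against 64.1 ± 5.91 CPM in the wildtype (log2 fold change -3.55, SE 0.16, adjusted p = 2.55e-05). Sesn, a sestrin, was at -0.90 (SE 0.20), and mTor, a kinase of growth control, at -0.49 (SE 0.16, adjusted p = 0.0420), a call lost in 6 of 14 alternatives.

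Basic leucine zipper factors are the family of Xrp1, Irbp18, crc, kay and Jra. Of 19 tested, 6 rose and 0 fell by edgeR, with a median of 0.34. At an unadjusted p under 0.05 by the same test, 8 were higher and 2 lower. No share of all genes is given at that unadjusted threshold, so these 2 counts have no background. Of the 2 lower, Atf-2, named after its values were seen, had few counts. These were 15 and 10 in the mutant against 5 and 15 in the wildtype. One of the 6, slbo, named after its values were seen, is also a follicle cell marker. It had 54 and 29 counts in the mutant against 5 and 3 in the wildtype. Like rpr and scaf, slbo passed the filter on low counts only through the mutant, where it was high. At an adjusted p under 0.05, 20.5% of all genes tested were higher and 20.9% lower. tj, a Maf factor of somatic gonad cells and itself a follicle cell marker, averaged 161 ± 2.66 CPM in the mutant and 75 ± 4.65 CPM in the wildtype (log2 fold change 1.10, SE 0.14). Xbp1, a factor of the unfolded protein response, was at 0.94 (SE 0.13). Against 1594 of all genes in the main fit, 1715 rose with protein-coding genes alone, 8 of this list among them. A fall of 1 gene was called there, with no filter on low counts, with the replicate number as a block and after thinning, and none in the other 10 alternatives.

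Over the 4 libraries, the profiles most like that of Gadd45 among 7101 other protein-coding genes were Cul6, CG13516 and CG5958, by the Euclidean distance between log2 CPM centred on each gene's mean (0.047, 0.129 and 0.146). For puc they were Cortactin, CG4455 and pot (0.066, 0.075 and 0.079), and for Xrp1 mRpL21, shot and CG11722 (0.019, 0.028 and 0.036). Within a distance of 0.2 there were 6 genes for Gadd45, 86 for puc and 342 for Xrp1. With 4 libraries of 2 genotypes, such a distance cannot be separated from the log2 fold change. The 3 named neighbours of Gadd45 were at 2.05 to 2.16, beside 2.04 for Gadd45, which ranked 92 from the top. Those of Xrp1 were at 0.37 to 0.41, beside 0.39 for Xrp1, which ranked 2414. Whether the counts of 6 and 342 reflect more than how extreme each fold change is was not tested.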

How the data were processed

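The authors deposited, per library, a table of read counts per transcript (BDGP6, per the submitters' processing notes) with RPKM, mean coverage signal and transcript length. Per the file headers, reads of 25 to 100 nt were placed 12 nt from their 5′ end, with no mask. The labels give footprints of 28 to 34 nt. The submitters' processing notes list DESeq2, bedtools 2.26.0, SAMtools 0.1.19, TopHat2 2.1.2 and Bowtie 1.0.0, without roles. The coverage signal was not used.

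Transcripts were named through a RefSeq gene table of the same release by shared ends, junctions or an 80% reciprocal overlap (34645 of 34729 transcripts); unnamed ones held 0.009% to 0.012% of the counts. The transcript with the highest mean counts stands for its gene. The deposited counts were tested with edgeR 4.0.16 (R 4.3.3; filterByExpr, TMM, quasi-likelihood, genotype only) and Benjamini-Hochberg adjustment over 7783 genes (degrees of freedom: 2 residual, 5.52 prior). Standard errors are the log2 fold change over the root of F. The procedure was tested on simulated data. Other tests, scalings, filters, transcripts and sets of libraries were alternatives, DESeq2 1.42.0 among them.

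The 10 genes, 7 pathway lists and 7 marker lists were chosen with earlier results of these data known. Of 193 list entries, 187 matched a gene. The text names the 10 genes, RpS5b, up to 3 called genes per list and direction with a mean CPM of at least 5, and the 3 nearest profiles of Xrp1, Gadd45 and puc. Replicates of a genotype differed beyond sampling noise. Reads carry no molecular identifiers. RNA-seq and sequences were not used here.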

Additional observations from a re-analysis of the deposited data

How the results depend on the processing

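Gadd45, puc, kay and Gcn2 kept their calls in all 14 alternatives, with a highest adjusted p of 0.00162, 0.0113, 0.0205 and 0.0445. Among all genes, 1594 rose in the main fit, 1944 with no filter on low counts and 1332 with at least 10 CPM. With the replicate number as a block 1939 rose, and 1715 did with protein-coding genes alone. Of the 10 genes, 3 rose in most settings and 5 with protein-coding genes alone. With no filter on low counts, with at least 10 CPM and with the replicate number as a block, 4 of the 10 rose. Leaving out each library in turn gave 3. DESeq2 called 852 genes higher and 1134 lower in all, against 1594 and 1625, and leaving out each library in turn gave 1035 to 1414 higher, the fewest without wildtype replicate 2. The estimate of crc, close to 0 throughout, changed sign to 0.065 with total counts, 0.0017 with no filter, 0.0053 with the replicate block, 0.040 after thinning to the smallest total, 0.00084 with the longest transcript, and 0.0045 and 0.0025 with its other transcripts. Leaving out each library in turn gave crc -0.14 to 0.11, with 0.022 when wildtype replicate 2 was left out and 0.11 when mutant replicate 1 was. PEK changed sign to 0.012 with total counts, and leaving out each library in turn gave it -0.22 to 0.17, the highest without wildtype replicate 2. None of these passed, and the cause was not tested. Same-numbered libraries correlated at 0.246 in their deviations, over 2 pairs whose shared number no label explains. Without wildtype replicate 2 the calls of Rack1 and Ski6, the collision and rescue genes that rose, were both lost. Bounds per exon and other transcripts were added after the data were seen. Irbp18, bsk and PEK fall below 10 CPM and were not tested there. Low counts in wildtype, 14 to 37 for Irbp18, Gadd45 and bsk, limit the precision of these genes.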

Other observations

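In a list of p38 pathway and DNA damage genes, falls were called among both kinds of gene. Of 14 tested, 1 rose, Gadd45, 8 fell and 5 did not pass, with a median log2 fold change of -0.96 against 0.03 over all genes tested, of which 20.5% were higher and 20.9% lower. Of the p38 pathway members lic and p38b fell (p38b, at -1.16, was named after its values were seen), and p38a and Mekk1 did not pass. lic, the kinase that activates p38, averaged 10.8 ± 0.014 CPM in the mutant and 36.0 ± 2.65 CPM in the wildtype (SD, n = 2 each; log2 fold change -1.73, SE 0.13, edgeR adjusted p = 0.000133). tefu, the fly ATM kinase, was at -1.70 (SE 0.17) and rad50, a subunit of the complex that binds broken DNA ends, at -1.41 (SE 0.16). Under the 14 alternatives 7 to 9 genes of this list fell.

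Of 10 genes tested that deal with collided or stalled ribosomes, 2 rose, 2 fell and 6 did not pass, with a median of 0.10. These shares are those of all genes tested, 20.5% higher and 20.9% lower, to within 1 gene. Rack1, a protein of the small ribosomal subunit that collision sensors use, was at 0.92 (SE 0.22, adjusted p = 0.0141), and Ski6, an exosome subunit, at 0.62 (SE 0.16). The helicase gene tst was at -0.72 (SE 0.13) and TER94, an ATPase that extracts proteins for degradation, at -0.69 (SE 0.19). The calls of Rack1, Ski6 and TER94 were lost in 2, 4 and 4 of 14 alternatives.

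Markers of other tissues were present to different degrees. The counts of called markers below stand beside 41.4% of all genes tested that were called, 20.5% higher and 20.9% lower. Of 9 muscle markers tested, 0 rose and 0 fell by edgeR. At an unadjusted p under 0.05, 1 was higher and 0 lower, and no share of all genes is given at that threshold. The muscle list summed to 213 and 155 CPM in the mutant against 245 and 159 CPM in the wildtype. Of 2 fat body markers tested 1 rose, with summed levels of 46.1 and 41.5 CPM in the mutant against 22.7 and 18.3 CPM in the wildtype, while Lsp1alpha, Lsp1gamma, Fbp1 and Fbp2 had 0 counts in every library. Of 6 blood cell markers tested, Col4a1 and vkg, both collagen IV genes that follicle cells also express, were called higher and 4 did not pass, and the list summed to 1078 and 976 CPM in the mutant against 478 and 480 CPM in the wildtype. The blood cell receptor gene NimC1 had 4 and 4 counts in the mutant against 0 and 0 in the wildtype. Nerve and trachea markers summed to 3.96 and 3.90 CPM in the mutant against 4.21 and 2.58 CPM in the wildtype, with brp and Syt1 at 0 counts in every library. The part of these markers in the changes of the 10 genes was not tested.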
